A study of Mus musculus with 5 samples.

Results

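The 171 probe sets described here measure transcripts of 59 splicing factor and hnRNP genes in mouse brain RNA. They are the probe sets with exactly 1 gene symbol that starts with Srsf and a digit, Hnrnp, Sf3a, Sf3b, Snrp or Prpf, out of 45101 probe sets in all and 18193 genes with a probe set of their own. SR proteins gave 33 probe sets of 10 genes, hnRNPs 58 of 19, SF3 subunits 30 of 9, Snrp genes 18 of 9 and Prpf genes 32 of 12. Brain RNA was bound in vitro to MA-Brent-1, an mRNA export factor of the REF/Aly family that 2 titles call REFP2, and the eluted RNA was hybridised to Affymetrix expression arrays. In 2 samples the protein was deiminated, that is, arginines had been converted to citrulline. In 2 it was non-deiminated, and 1 further sample held the starting brain RNA without binding, called input here. Each bound group has 1 title with each protein name, and 1 non-deiminated title calls its sample a biological repeat. No source at hand states the strain or age of the mice, or where the other repeats came from. The p-values therefore reflect no more than the spread within the 2 bound groups, which may be technical. The input is 1 sample, so its own spread was not measured.

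The spliceosome removes introns from pre-mRNA. Its small nuclear ribonucleoproteins carry a ring of Sm proteins, encoded by Snrp genes, and its U2 particle recognises the branch point through the SF3A and SF3B complexes, while the PRPF proteins belong mostly to the U5 and U4/U6 particles and to the complexes that activate them. SR proteins bind exonic enhancers and mostly promote exon inclusion, and hnRNPs coat nascent transcripts and often oppose them. Some members of both families also serve mRNA export: Srsf3 is an adaptor for the export receptor Nxf1, to which the REF/Aly proteins also bind, and Hnrnpa2b1 is known in neurons for the transport of mRNAs along dendrites. The arrays measured the mRNAs that encode these proteins, not the proteins.

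Across the whole array the median signal was 29.9 and 37.6 with deiminated protein, 30.5 and 41.5 with non-deiminated protein and 102 in the input, although the trimmed mean was the same on all 5. The spiked hybridisation controls averaged 10.6 and 12.6 log2 with deiminated protein, 10.1 and 13.0 with non-deiminated protein and 17.0 in the input. For Gapdh the 3' to 5' control probe set ratio was 17.4 to 31.9 on the bound arrays and 2.71 in the input. For beta-actin it was 29.8 to 55.6 on the bound arrays and 234 in the input, so the 2 genes differed in direction. Binding and these differences between arrays cannot be told apart, since the input is 1 array. The 5 neuronal markers examined had summed signals of 10234 and 10788 with deiminated protein, 9833 and 10033 with non-deiminated protein and 2298 in the input. One of them, Tubb3, had 8.56 in the input, far below that array's median, and no detection calls were used. Of 25 brain cell markers, 22 passed the signal filter. By the test described below, 13 were higher and 1 was lower on the bound arrays, against 31.6% and 24.8% of all genes. Summed signals of astrocyte markers were 10651 to 13470 on the bound arrays and 2257 in the input. Those of oligodendrocyte markers were 11567 to 42852 and 31982, and those of red blood cell markers were 91.2 to 155 and 351. The part of the markers in the results below was not tested. In brain RNA, fewer cells of a type and less RNA per cell cannot be told apart.

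The splicing factor probe sets read brighter on the bound arrays than in the input. Their median signal was 232 and 231 with deiminated protein, 248 and 207 with non-deiminated protein and 160 in the input. All 4 bound medians lay above the input median. By class, the hnRNP median was 462 and 521 with deiminated protein, 506 and 413 with non-deiminated protein and 212 in the input. The SR median was 240 and 228 with deiminated protein, 294 and 158 with non-deiminated protein and 139 in the input. The Snrp median was 243 and 252 with deiminated protein, 253 and 252 with non-deiminated protein and 160 in the input. In these 3 classes every bound median exceeded the input median. For SF3 genes the bound medians of 194 to 234 lay around the input median of 220, and for Prpf genes the bound medians of 68.1 to 90.0 lay around the input median of 81.3.

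**Figure D1:**
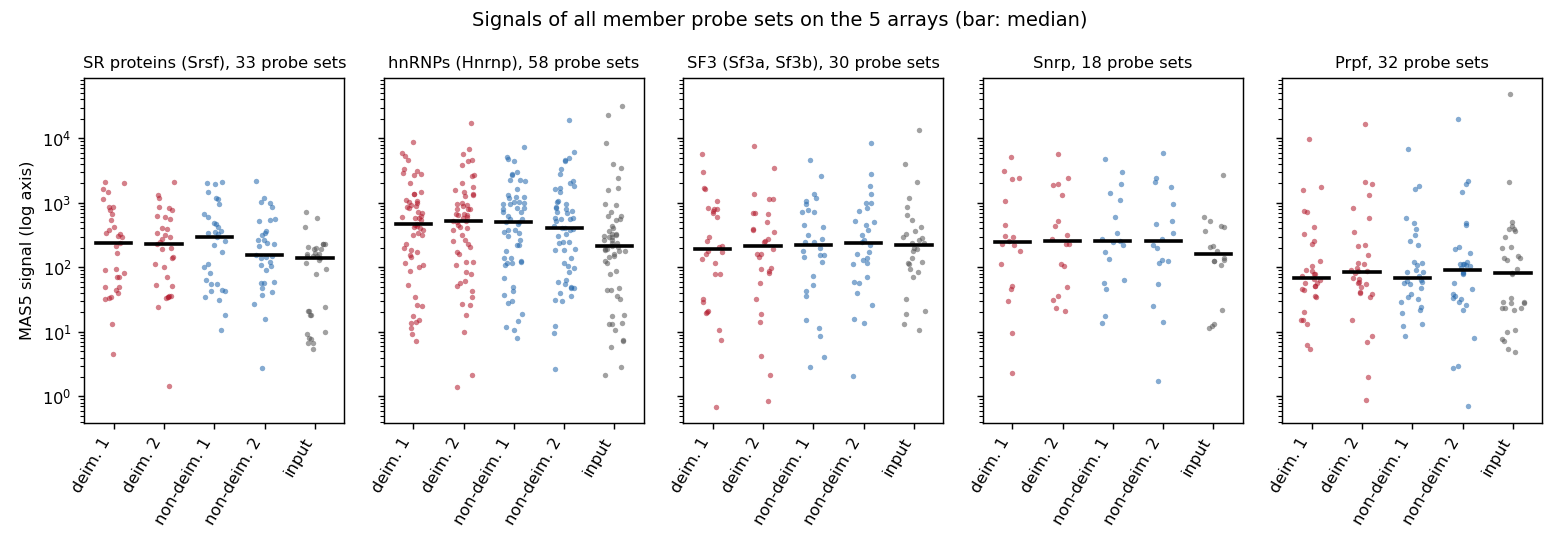
MAS5 signal (log axis) of every member probe set on the 2 deiminated, 2 non-deiminated and 1 input arrays, in a panel per class. Points are probe sets and bars are medians. The bound medians lie above the input median for SR proteins, hnRNPs and Snrp genes, and on both sides of it for SF3 and Prpf genes.

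The 4 bound arrays ranked these transcripts alike, and the input array ranked them differently. Over the 152 members that passed the signal filter, Pearson's r was 0.987 between deiminated replicate 1 and non-deiminated replicate 1, 0.965 for the deiminated pair and 0.924 for the non-deiminated pair. With the input array it was 0.510 to 0.627, against 0.321 to 0.390 over all kept probe sets. The points are probe sets that share their arrays, so these values describe the arrays and carry no test.

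Setting bound RNA against input asks which RNAs were richer among those eluted from the protein than in the starting RNA. No sample held RNA eluted without the protein. Uptake by the protein therefore cannot be told apart from other effects of the binding and elution steps. The mean of the 2 bound groups was set against the input on the log2(signal + 4.18) scale, with limma and Benjamini-Hochberg adjustment over all 27022 kept probe sets. A probe set with adjusted p under 0.05 is called, and errors after ± are standard errors. The fit assumes that the input reading varies as much as the bound ones do. Of the 152 kept members, 74 were called higher (48.7%) against 26.8% of all kept probe sets, and 28 were called lower (18.4%) against 29.8%. The median difference was 1.05 for the members and -0.20 for all kept probe sets. With no filter, all 171 members entered, 72 were higher and 30 lower, against 15.6% and 36.2% of all probe sets, and the median was 0.95 against -0.92.

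Each bound group gave much the same counts against the 1 input array that they share. With deiminated protein 71 members were higher (against 24.9% of all kept probe sets) and 26 lower (against 26.6%). With non-deiminated protein 67 were higher (against 24.7%) and 23 lower (against 25.7%).

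In the kept members all 4 bound signals exceeded the input signal for 98 (64.5%), against 39.1% of all kept probe sets, and all 4 lay below it for 44 (28.9%), against 45.6%. The members were also brighter than the rest, with a median bound signal of 299 against 95.7. Among the brighter 18015 probe sets left by a stricter filter, 67 of 124 members were higher (54.0%) against 36%, and 19 were lower (15.3%) against 21%. The counts depend on the scaling between arrays. Centring each array on its median moves the median of all kept probe sets to 1.25. It gave 104 higher members (68.4%, against 46.9% of all kept probe sets) and 5 lower (3.29%, against 6.08%). Cyclic loess gave 49 higher (32.2%, against 24.6%) and 26 lower (17.1%, against 20.4%). Scaling to the hybridisation controls moved the median of all kept probe sets to 4.33 and left 1 member called (0.65%, against 0.37%). Centring shifts every difference equally, so it cannot change the gap between the members' median and that of all kept probe sets, which stayed 1.26. Scaling to the controls applies 1 factor per array, and the gap was 1.20. It was 0.95 with quantile normalisation and 0.52 with cyclic loess.

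Transcripts of SR proteins were among the higher ones. Of 30 kept SR probe sets, 18 were called higher (60%, against 26.8% of all kept probe sets) and 2 lower (6.67%, against 29.8%). Their median difference was 1.39. With cyclic loess these were 12 higher (40%, against 24.6%) and 0 lower, with a median of 0.56. Every one of the 10 genes has a kept probe set. Srsf2, which encodes a regulator that binds exonic enhancers, had 379 and 279 with deiminated protein, 494 and 158 with non-deiminated protein and 7.61 in the input for its brightest probe set. All 4 bound signals were far above the input, and the difference was 4.70 ± 0.55 (n = 4 and 1; limma adjusted p = 2.94e-05). The input value is close to the added 4.18, so the size depends on that constant. Srsf3, the export adaptor, had 1618 and 1194 with deiminated protein, 1468 and 986 with non-deiminated protein and 160 in the input. It rose by 2.99 ± 0.37 (limma adjusted p = 4.23e-05), again with no overlap. Srsf1, which promotes exon inclusion and is a known oncogene, had 2124 and 2132 with deiminated protein, 2133 and 2190 with non-deiminated protein and 580 in the input. The 4 bound signals differed little from each other, and the rise was 1.88 ± 0.35 (limma adjusted p = 0.000903), a call lost with cyclic loess, where the difference was 0.45.

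The other SR genes were less uniform. Srsf4, with 1 probe set, rose by 1.93 and Srsf12 by 1.65. Srsf11 had 3 of 4 probe sets called higher, up to 5.21, and Srsf6 2 of 4, up to 4.06. Srsf10, known as a splicing repressor when dephosphorylated, had 1 of 3 called higher. Srsf5 (0.52) and Srsf9 (-0.12) did not pass, and the sign of Srsf9 turned with quantile normalisation, median centring and hybridisation control scaling. The second export adaptor of the family, Srsf7, has no probe set with its symbol alone and was not analysed here.

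The hnRNP transcripts gave a similar share, with 31 of 53 kept probe sets called higher (58.5%, against 26.8% of all kept probe sets). Another 10 were lower (18.9%, against 29.8%), and the median difference was 1.30. With cyclic loess these were 16 higher (30.2%, against 24.6% of all kept probe sets) and 10 lower, with a median of 0.17. Hnrnpab, which encodes a protein known to bind and transport neuronal mRNAs, had 4604 and 4623 with deiminated protein, 4523 and 4972 with non-deiminated protein and 118 in the input for its brightest probe set. The bound signals lay within a narrow range far above the input, a difference of 5.26 ± 0.36 (limma adjusted p = 5.69e-07). Hnrnpa0 had 1360 and 916 with deiminated protein, 1618 and 815 with non-deiminated protein and 36.1 in the input. Its difference was 4.82 ± 0.42 (limma adjusted p = 2.44e-06). Hnrnpm, a regulator of alternative splicing, had 335 and 506 with deiminated protein, 509 and 559 with non-deiminated protein and 17.9 in the input. Its difference was 4.42 ± 0.39 (limma adjusted p = 2.80e-06). Both genes rest on 1 kept probe set each, and their groups did not overlap.

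Among the larger hnRNP genes, Hnrnpa2b1 was higher with each of its 4 probe sets, by 1.5 to 5.96. Its brightest one had 2769 and 3879 with deiminated protein, 2250 and 2771 with non-deiminated protein and 370 in the input. Hnrnpu, the scaffold attachment factor, had 5301 and 5641 with deiminated protein, 4830 and 4646 with non-deiminated protein and 971 in the input. It rose by 2.38 ± 0.40 with that probe set (limma adjusted p = 0.000423). Hnrnpdl was higher with 5 of 7 probe sets, Hnrnpr with 4 of 5, and Hnrnpll, which regulates CD45 splicing in lymphocytes, with 2 of 2. Hnrnph1 (1.45) and Hnrnph3 (1.01) rose less, and both calls were lost with cyclic loess and in the fit without a variance trend. Hnrnph1 was also lost with quantile normalisation (0.85). Hnrnph3 was also lost without deiminated replicate 1 (1.09) and without deiminated replicate 2 (0.93), and with the protein name as a block (limma adjusted p = 0.0608).

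Other hnRNPs were not higher with their brightest probe set. Hnrnpa1, the textbook splicing repressor, had 612 and 794 with deiminated protein, 557 and 579 with non-deiminated protein and 565 in the input. The input lay among the bound signals, and the difference of 0.15 ± 0.34 did not pass (limma adjusted p = 0.714) and turned to -1.11 with cyclic loess and -0.71 with quantile normalisation. It was called lower with cyclic loess (limma adjusted p = 0.0227) and higher with median centring (1.61, limma adjusted p = 0.0115). A dim Hnrnpa1 probe set was lower, at -3.20. Hnrnpc, which measures the length of nascent transcripts, had 2747 and 1598 with deiminated protein, 3011 and 2021 with non-deiminated protein and 1594 in the input. Its brightest probe set had a difference of 0.51, which did not pass and turned with the same 2 scalings. It was called higher with median centring (1.97, limma adjusted p = 0.00975). A dimmer Hnrnpc probe set rose by 2.01. Hnrnpf fell by 1.21 and Hnrnpul1 fell by 0.93. The Hnrnpf call was lost without deiminated replicate 1 (-1.08) and without deiminated replicate 2 (-1.35), as was that of Hnrnpul1 (-0.84 and -1.02). With the protein name as a block both calls were also lost (limma adjusted p = 0.117 for Hnrnpf and 0.113 for Hnrnpul1). Both values turned positive with median centring and with hybridisation control scaling.

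Genes of the SF3 complexes were called about as often as all probe sets. Of 26 kept, 8 were higher (30.8%, against 26.8% of all kept probe sets) and 7 lower (26.9%, against 29.8%), with a median of 0.22. All 8 called higher belong to SF3B genes, as do 4 of the 7 called lower and 21 of the 26 kept. The median turned to -0.66 with cyclic loess, and relative to all kept probe sets it was 0.42, against -0.05 after quantile normalisation and -0.40 with cyclic loess. Sf3b1, the branch-site subunit, had 1658 and 1350 with deiminated protein, 1077 and 1822 with non-deiminated protein and 368 in the input. It rose by 1.96 ± 0.38 (limma adjusted p = 0.0012), with 3 of its 4 probe sets called higher. Sf3b4 rose by 1.43 and Sf3b3 by 1.45 with their brightest probe sets, and all 3 calls were lost with cyclic loess. Sf3a2, a U2 subunit, had 3019 and 3458 with deiminated protein, 2636 and 2750 with non-deiminated protein and 13524 in the input. The input exceeded every bound signal, and both Sf3a2 probe sets were lower, by -2.20 ± 0.41 for the brighter (limma adjusted p = 0.000897). Sf3a1 had -1.44 with its brightest probe set and Sf3a3 had -0.14, which did not pass. The Sf3a1 value turned to 0.01 with median centring, the Sf3a2 call was lost there (-0.74), and both genes turned positive with hybridisation control scaling.

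Snrp transcripts had 9 of 16 kept probe sets called higher (56.2%, against 26.8% of all kept probe sets) and 3 lower (18.8%, against 29.8%), with a median of 1.04. With cyclic loess these were 5 higher (31.2%, against 24.6%) and 2 lower, with a median of 0.16. Snrpa1, a U2 protein, had 2444 and 1904 with deiminated protein, 1984 and 1789 with non-deiminated protein and 128 in the input. Its difference was 3.94 ± 0.35 (limma adjusted p = 2.89e-06). The Sm ring gene Snrpg had 3069 and 2431 with deiminated protein, 2989 and 2417 with non-deiminated protein and 423 in the input, and its brightest probe set rose by 2.67 ± 0.37 (limma adjusted p = 9.93e-05). The core Sm gene Snrpb was higher with both probe sets, by 1.68 and 4.18, and the U1 gene Snrpc rose by 1.85. With cyclic loess Snrpc and the brighter Snrpb probe set were no longer called (0.80 and 0.25). Snrpe (1.01) and Snrpf (0.86) did not pass. Snrpn, the Sm gene known for its expression in neurons and its imprinting, had 29.9 and 36.3 with deiminated protein, 64.7 and 14.0 with non-deiminated protein and 127 in the input. These readings were low, and the difference of -1.86 did not pass (limma adjusted p = 0.062). It is the 1 Snrpn probe set with that symbol alone.

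Prpf transcripts had 8 of 27 kept probe sets called higher (29.6%, against 26.8% of all kept probe sets) and 6 lower (22.2%, against 29.8%), with a median of 0.82. With the brightest probe set of each of the 12 genes, 1 was higher and 4 were lower, and the median was -0.41. With cyclic loess 11 of the 27 probe sets were higher (40.7%, against 24.6% of all kept probe sets) and 5 lower (18.5%, against 20.4%), with a median of 0.77. Quantile normalisation gave 14 higher (51.9%, against 38.4%), so the share of this class depends on the scaling. Prpf3, of the U4/U6 particle, had 104 and 114 with deiminated protein, 115 and 192 with non-deiminated protein and 7.72 in the input. It rose by 3.46 ± 0.55 (limma adjusted p = 0.000297), from an input reading near the added constant. In the other direction Prpf31, also of U4/U6, had 78.0 and 91.4 with deiminated protein, 63.8 and 79.9 with non-deiminated protein and 398 in the input. Its difference was -2.30 ± 0.47 (limma adjusted p = 0.00167). The U4/U6 gene Prpf4 had -2.08 and Prpf40b, related to a yeast U1 protein, had -1.61. The calls of these 3 genes were lost with median centring, and their values turned positive with hybridisation control scaling. The Prpf4 call was also lost with cyclic loess (-1.27) and quantile normalisation (-1.04). Prpf8, the large protein at the centre of the spliceosome, had 126 and 81.4 with deiminated protein, 122 and 109 with non-deiminated protein and 139 in the input. Its difference of -0.36 did not pass, and it turned positive with quantile normalisation, median centring and hybridisation control scaling.

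**Figure D2:**
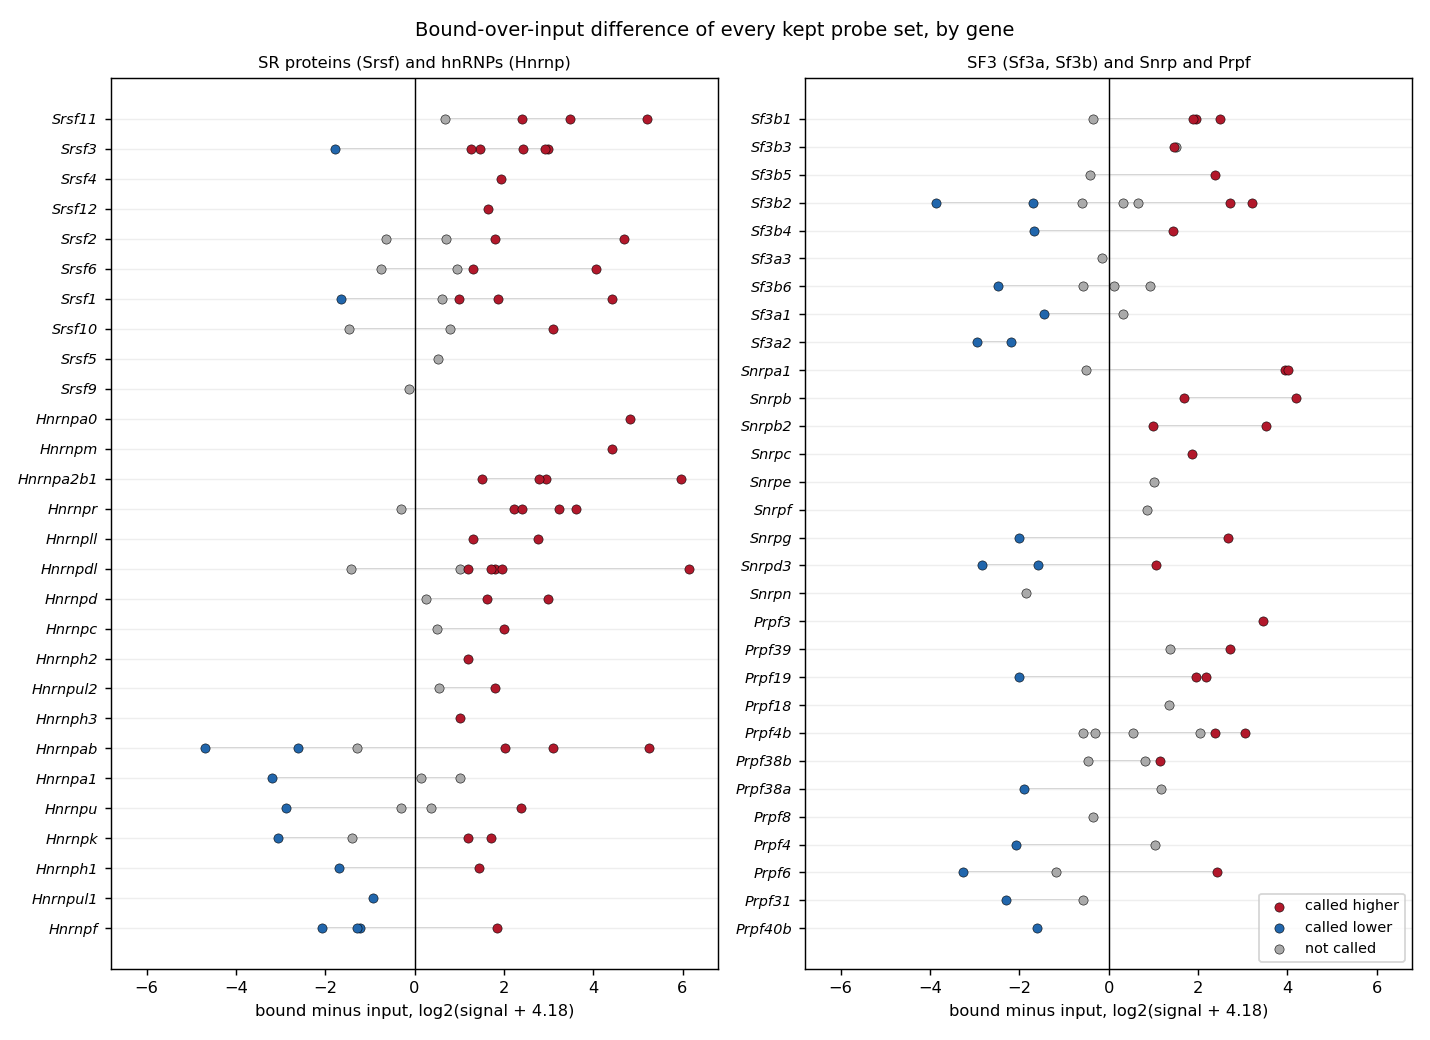
Bound minus input difference on the log2(signal + 4.18) scale for each of the 152 kept probe sets, in 1 row per gene. Red points were called higher (74), blue points lower (28) and grey points were not called (50), and a line joins the probe sets of 1 gene. Most SR and hnRNP points lie to the right of 0, and many genes have points on both sides.

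Different probe sets of one gene often disagreed in the comparison with input. Of 40 genes with 2 or more kept probe sets, 13 (32.5%) had probe sets called in both directions, against 23% of all such genes, 20 were called higher only and 7 lower only. The 13 are Srsf1, Srsf3, Hnrnpab, Hnrnpf, Hnrnph1, Hnrnpk, Hnrnpu, Sf3b2, Sf3b4, Snrpd3, Snrpg, Prpf6 and Prpf19. The median range of the differences within a gene was 3.76 for bound minus input but 0.53 for deiminated minus non-deiminated. Over all genes the same ranges were 2.59 and 0.50. These ranges and the share called in both directions can grow with the number of probe sets a gene. The members and all genes were not matched for that number.

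Hnrnpab shows the widest spread of the 13. Its brightest probe set rose by 5.26, while another, 1426114_at, had 708 and 804 with deiminated protein, 713 and 1446 with non-deiminated protein and 22615 in the input. That probe set had a difference of -4.68 ± 0.42 (limma adjusted p = 3.06e-06), so 1 gene was called strongly in each direction. For both of these probe sets the bound readings lay closer to each other than to the input reading. The 3' to 5' control ratios also set the input apart, and their part in this was not tested. Sf3b2 had 7 kept probe sets with differences of -3.86 to 3.21, of which 2 were higher and 2 lower. For Hnrnpk, a poly(C)-binding hnRNP, the brightest probe set had 8894 and 17040 with deiminated protein, 7225 and 18997 with non-deiminated protein and 31592 in the input. In each bound group the array with the higher Hnrnpk reading also had the higher hybridisation controls. Between those arrays the markers Mbp and Ttr, singled out after their values were seen, differed in the same direction. Mbp, of myelin, had 14068 and 33403 with deiminated protein, 10834 and 42152 with non-deiminated protein and 31935 in the input. Ttr, of choroid plexus, had 12881 and 34919 with deiminated protein, 10627 and 40570 with non-deiminated protein and 7998 in the input. Another myelin gene, Mag, went the other way in both groups, with 474 and 278 with deiminated protein and 551 and 461 with non-deiminated protein. The myelin gene Mog went with Mbp, with 178 and 226 with deiminated protein and 182 and 238 with non-deiminated protein. Kcnj13, of choroid plexus, was mixed, with 191 and 220 with deiminated protein and 223 and 181 with non-deiminated protein. The part of these differences in the Hnrnpk reading was not tested. The Hnrnpk difference of -1.40 did not pass, and among the other Hnrnpk probe sets 2 were higher (up to 1.72) and 1 was lower (-3.05). Prpf19, a ubiquitin ligase of the spliceosome, had 2 probe sets higher and its brightest lower, at -2.0. Prpf6 had differences of -3.25 to 2.42, Hnrnpf of -2.06 to 1.84, Hnrnph1 of -1.68 to 1.45 and Hnrnpu of -2.87 to 2.38. The Sm ring genes Snrpd3 (-2.83 to 1.07) and Snrpg (-2.0 to 2.67) and the SF3B gene Sf3b4 (-1.68 to 1.43) also spanned 0. In Srsf3, 5 of 6 probe sets were higher and only 1438215_at was lower (-1.78), and in Srsf1 3 of 5 were higher and 1 lower (-1.64).

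**Figure D3:**
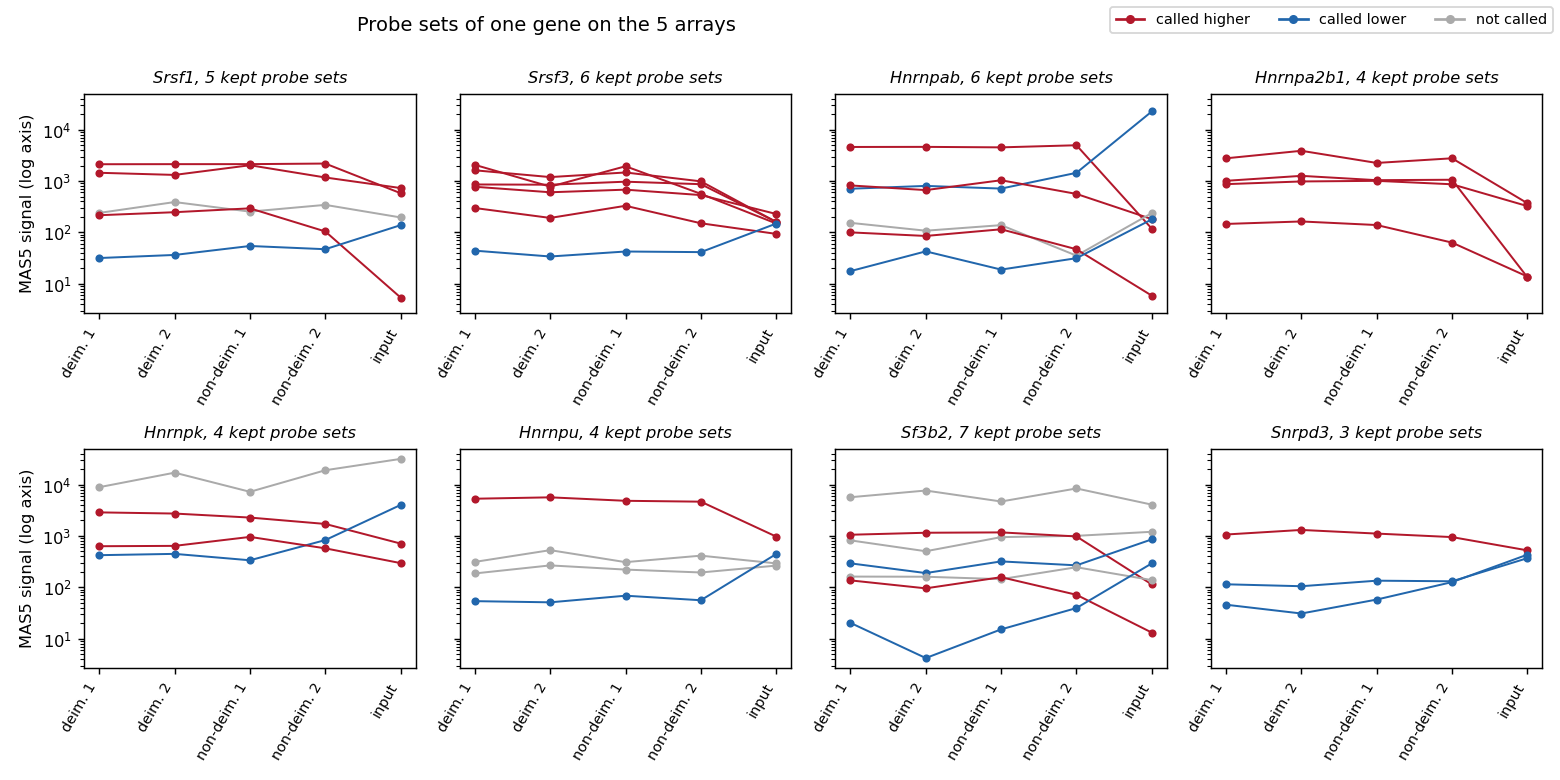
MAS5 signal (log axis) of each kept probe set of 8 genes on the 2 deiminated, 2 non-deiminated and 1 input arrays, with a line per probe set coloured by its call against input. Many lines change less over the bound arrays than towards the input array. Lines of 1 gene cross there, for example in Hnrnpab and Sf3b2, while all 4 lines of Hnrnpa2b1 drop. The brightest Hnrnpk line runs from 7225 to 18997 over the bound arrays.

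Members called higher and lower differed in both readings. Those called higher had a median bound signal of 561, against an input median of 116 (2.16 to 1713). Those called lower had a median bound signal of 71.8, against an input median of 350 (123 to 48494). Of the 74 called higher, 19 had an input signal under 16.7, which is 4 times the added constant, and of the 28 called lower 0 did. These signals chose the calls, so they are a description only.

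The other comparison asks whether deimination changed which of these RNAs bound. No member passed. limma called 0 of 152 with adjusted p = 0.9999 throughout, against 0% of all kept probe sets. Without adjustment 1 member (0.658%) fell under 0.05, against 1.32%. The median difference was 0.03, with 80 positive and 72 negative. Class medians were 0.07 for hnRNPs, -0.02 for SR proteins, 0.02 for Snrp, 0.12 for Prpf and -0.14 for SF3 genes. Both deiminated arrays exceeded both non-deiminated arrays for 12 members (7.89%), against 11% of all kept probe sets, and lay below both for 19 (12.5%), against 13.1%. The 95% interval lay within 2-fold for 60 members (39.5%) and within 4-fold for 141 (92.8%), against 24.2% and 83.9% of all kept probe sets, so a 2-fold difference lies inside most of these intervals and a 4-fold difference outside most.

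Over all 152 kept members the differences ran from -1.10 to 1.59. The genes whose brightest probe set had the largest moderated t in each class show their size, and none of them passed. Srsf11 had 422 and 407 with deiminated protein and 345 and 226 with non-deiminated protein, a difference of 0.56 (95% interval -0.17 to 1.29). Hnrnph1 had 1022 and 1733 with deiminated protein and 1213 and 732 with non-deiminated protein, a difference of 0.50 (-0.29 to 1.28). The Hnrnph1 groups overlapped and those of Srsf11 did not. Prpf4b, a kinase of the spliceosome, had 715 and 823 with deiminated protein and 574 and 480 with non-deiminated protein, a difference of 0.54 (-0.11 to 1.20). The 6 kept Prpf4b probe sets ran from -0.59 to 1.59. Hnrnph3 had 0.47, Prpf38b 0.36, Snrpb 0.31, Snrpf 0.29 and Sf3a2 0.26, and Sf3a1 had -0.39 and Srsf9 -0.24. The export adaptor Srsf3 had 0.21 (-0.50 to 0.92) and Hnrnpa2b1 0.39 (-0.33 to 1.12). The 1 member with an unadjusted p under 0.05, named after its value was seen, was Snrpd3 probe set 1422885_at with 45.9 and 30.9 with deiminated protein and 57.8 and 126 with non-deiminated protein. Its difference was -1.10 (-2.19 to -0.01), and the brightest Snrpd3 probe set had 0.20.

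**Figure D4:**
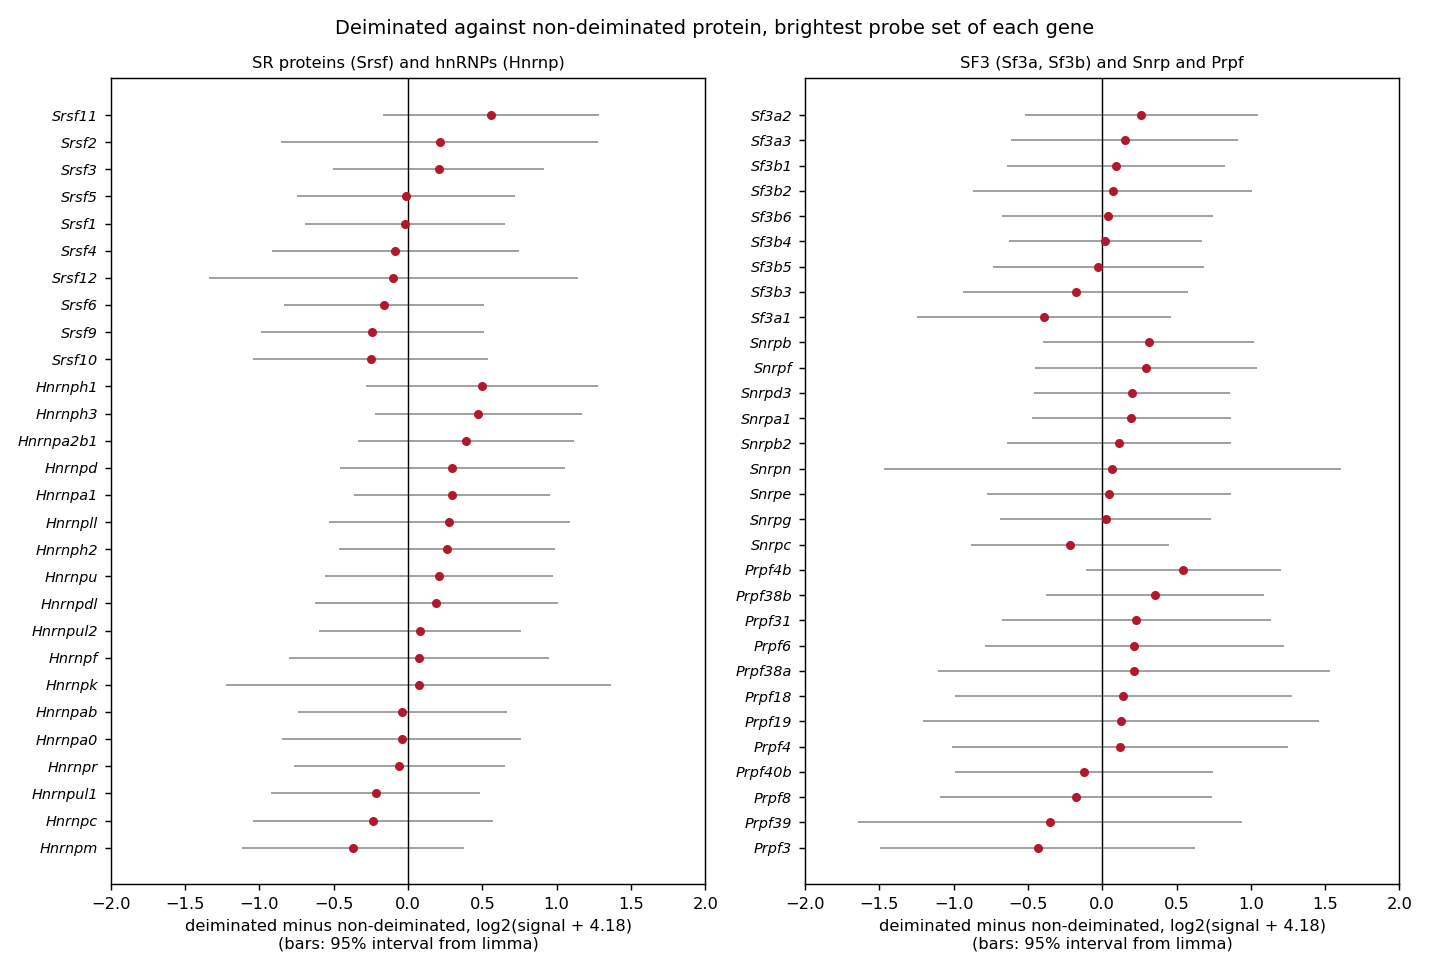
Deiminated minus non-deiminated difference on the log2(signal + 4.18) scale for the brightest kept probe set of each of 58 genes, with the 95% interval from limma. Points lie between -0.43 and 0.56, and every interval includes 0.

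The splicing genes outside the chosen families were called higher against input somewhat more often than all genes, and lower somewhat less often, with no test of either difference. Of 147 genes on a list of other splicing factors, 138 have a probe set of their own and 132 passed the filter. With 1 probe set a gene, 49 were called higher (37.1%, against 31.6% of all genes) and 26 lower (19.7%, against 24.8%), with a median of 0.42 against 0.12 for all genes. On the same footing the chosen families had 28 of 58 genes higher (48.3%) and 8 lower (13.8%), with a median of 1.04. Among RS-domain proteins and the kinases that phosphorylate them, 12 of 28 were higher and 6 lower, in core spliceosome genes 19 of 56 and 9, and in other RNA-binding regulators 18 of 48 and 11. Smndc1, a survival motor neuron relative of the spliceosome, had 579 and 475 with deiminated protein, 513 and 609 with non-deiminated protein and 11.5 in the input. It rose by 5.12 ± 0.37 (limma adjusted p = 7.30e-07), a size that was 4.31 to 5.43 with the other added constants. The STAR protein gene Khdrbs1 rose by 4.42, the nuclear speckle gene Srrm2 by 4.15, the poly(C)-binding gene Pcbp2 by 3.94 and the helicase Dhx15 by 3.18. In the other direction, Srpk3, an SR protein kinase known from muscle, had 235 and 297 with deiminated protein, 211 and 182 with non-deiminated protein and 2243 in the input. Its difference was -3.28 ± 0.35 (limma adjusted p = 1.49e-05). Raly had -3.93, the neuronal splicing regulator Rbfox2 -3.05, Ptbp1, which represses neuronal exons, -2.15 and Usp39 -1.96. The calls of Ptbp1 and Usp39 were lost with median centring, and these 5 values turned positive with hybridisation control scaling. Between deiminated and non-deiminated protein, limma called 0 of the 132.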

How the data were processed

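The 5 arrays hold RNA from mouse brain: 2 samples bound to the deiminated protein, 2 to the non-deiminated protein and 1 input. The deposited table gives a signal intensity for each probe set on a linear scale, made by the authors with MAS5, per the submitters' processing notes with no version named. The 2% trimmed mean was equal on all arrays. No detection calls were used. A pseudocount of 4.18 (10% of the overall median signal, 41.8) was added before log2. Of 45037 non-control probe sets, 27022 with a mean log2 signal at or above the 40th percentile were kept. limma 3.58.1 in R 4.3.3 was fitted to 3 group means (lmFit, eBayes with trend, 2 residual and 10.9 prior degrees of freedom) and checked on simulated data. Entrez identifiers of all 171 members matched the RefSeq gene table, and 0 symbols changed. Genes are represented by the probe set with the highest mean log2 signal.

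The members and lists were chosen with earlier results of these data known. Named genes are those of textbook roles, the 3 called genes per class and direction with the largest moderated t whose groups did not overlap, the 2 per class with the largest moderated t between the bound groups, genes called in both directions, and 5 other splicing genes per direction. Further genes with 1 or several probe sets were named after their values were seen. Alternatives covered the pseudocount (1.05 and 16.7), filter (none and the 60th percentile), scaling, variance model, array weights, a block for the protein name, and leaving out each bound array. Fits on the bound arrays with lower or higher controls alone were added after the data were seen. Precision is limited by the number of arrays.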

Additional observations from a re-analysis of the deposited data

How the results depend on the processing

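No paired analysis was possible because the replicate numbers follow accession order and the labels share none between groups. The titles do give each bound group 1 array of either protein name. With that name as a block, 69 members were higher than input (45.4%, against 24.5% of all kept probe sets) and 23 lower (15.1%, against 27.6%). Between the bound groups 0 were called, and 3 of the named genes counted below lost their call against input. The members called higher against input (74) numbered 49 with cyclic loess (against 24.6% of all kept probe sets) and 1 with hybridisation control scaling (against 0.37%). Refitted with 1 probe set a gene, they numbered 28 of 58 (against 32.0%). Those called lower (28) numbered 5 with median centring (against 6.08%), 0 with hybridisation control scaling (against 0%) and 8 with 1 probe set a gene (against 25.5%). The members' median of 1.05 was 1.20 with the 60th percentile filter, 1.45 after quantile normalisation, 2.51 after median centring, 0.26 with cyclic loess, 5.53 with hybridisation control scaling and 1.01 to 1.19 with 1 bound array left out. The medians of all kept probe sets under those filter and scaling settings were 0.29, 0.50, 1.25, -0.26 and 4.33. The other splicing genes called higher (49 of 132) numbered 81 with median centring, 29 with cyclic loess, 1 with hybridisation control scaling and 44 to 56 with 1 bound array left out. The share of all genes was not computed under these settings. Of all kept probe sets 46.9% were higher with median centring, 24.6% with cyclic loess and 0.37% with hybridisation control scaling. Hybridisation controls also differ within each bound group, so that scaling sets its arrays apart. With the lower-control bound arrays alone 89 members were higher (against 34.0% of all kept probe sets) and 36 lower (against 41.8%). With the higher-control ones 68 were higher (against 23.9%) and 27 lower (against 25.6%). limma called 0 members between the bound groups in every setting run, and their median ran from -0.0025 to 0.04 with 1 bound array left out. The named genes counted here are 45. They leave out genes named only for calls in both directions or after their values were seen. Of these 45, 35 were called against input. Of the 35, 33 were no longer called with hybridisation control scaling, 9 with median centring, 9 with cyclic loess, 3 with quantile normalisation and 0 with either other pseudocount. The causes were not tested.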

Other observations

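The letters in a probe set's name say how specific its probes are, and the calls against input differed between these classes. Names with "a" mark probes shared by transcripts of 1 gene, and of these 17 of 29 kept members were called higher and 2 lower. Names with "s" mark probes shared by transcripts of several genes, with 12 of 21 higher and 1 lower, and plain names had 39 of 83 higher and 18 lower. Names with "x" mark probes that can also bind other sequences, and here 6 of 19 were higher and 7 lower, with a median of 0.12. Over all kept probe sets, 37.4% of the "a" class were higher and 22.6% lower, 39.2% and 18.8% of the "s" class, 24.1% and 32.0% of the plain class, and 29.2% and 26.9% of the "x" class. The difference between members and all probe sets within a class was not tested. Members with pseudogenes or near-identical relatives, such as Hnrnpa1 and Snrpb, may share signal with them, and this was not tested.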
